A study of Homo sapiens with 9 samples.

Results

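Platelet-derived growth factors (PDGFs) and their receptors are described here across the 3 groups of a knockdown study, by the deposited count and FPKM (read fragments scaled by transcript length and library depth) of every gene named PDGFA, PDGFB, PDGFC, PDGFD, PDGFRA, PDGFRB or PDGFRL. These are 7 of the 36225 genes in the table, 4 encoding ligands and 3 encoding receptors or a receptor-like protein. The family was selected on the measured count and FPKM values of these same libraries, so the differences of its members between groups are given as descriptions, with no p-value, and calls of members are only counted, beside the share of all genes called. RNA was sequenced from RBE cells, an established line grown from a human tumour of the intrahepatic bile ducts (cholangiocarcinoma). The cells carried a lentiviral short hairpin RNA against IDH1 (shIDH1), one against JOSD2 (shJOSD2), or a scramble hairpin (control), with 3 libraries in each group, 9 in all. IDH1 encodes the cytosolic isocitrate dehydrogenase, JOSD2 encodes a deubiquitinase, and the series title ties both to growth of this cancer through YAP and TAZ. All groups, control included, were infected with lentivirus. The labels name 1 hairpin for each target and give neither its sequence, nor the time after infection, nor whether replicate libraries stem from separate infections. The p-values given for other genes therefore cover the spread among these libraries alone, and that spread may be technical.

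PDGF chains pair into disulfide-linked dimers that bring receptor tyrosine kinases together at the cell surface. PDGF-A and PDGF-B are cut to their active form inside the cell by furin-like convertases, whereas PDGF-C and PDGF-D are secreted with a CUB domain that proteases outside the cell remove. The alpha receptor (PDGFRA) binds the A, B and C chains, and the beta receptor (PDGFRB) binds the B and D chains. Bound receptors phosphorylate each other and recruit phosphoinositide 3-kinase, phospholipase C gamma, Src-family kinases and the adaptors that lead to Ras. In liver the receptors are best known on stellate cells, portal fibroblasts and pericytes, and tumour cells of the bile ducts are a known source of ligands that act on those neighbours. PDGFRL encodes a secreted protein with immunoglobulin domains like those of the receptors but no kinase.

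Both targeted transcripts were lowest under their own hairpin. IDH1 was at 12.4, 13.1 and 12.3 FPKM in shIDH1 libraries, 32.7, 35.2 and 35.5 FPKM in shJOSD2 libraries, and 45.6, 39.0 and 47.4 FPKM in control libraries. JOSD2 was at 1.505, 1.852 and 1.697 FPKM in shIDH1 libraries, 0.771, 0.708 and 0.906 FPKM in shJOSD2 libraries, and 6.66, 6.31 and 6.15 FPKM in control libraries. Each of these transcripts was thus lower under both hairpins than in any control library, with IDH1 in shJOSD2 cells 1.41-fold below control (edgeR, adjusted p = 8.66e-05) and JOSD2 in shIDH1 cells 3.73-fold below control (edgeR, adjusted p = 7.69e-07). The libraries held 66036276 to 71612713 deposited counts. Low counts gather at multiples of 4 (among 62353 nonzero values up to 12, there were 10737 of 4 and 3780 of 5), so about 4 counts may stand for 1 sequenced fragment, and the counts carry less precision than their size implies. KRT19, a biliary keratin, averaged 524 FPKM in shIDH1, 415 FPKM in shJOSD2 and 561 FPKM in control libraries. KRT19 is 1 of 8 biliary and epithelial markers examined, and the labelled origin of the cells was not tested. At an adjusted p under 0.05 (edgeR), 3 of the 8 were higher and 2 lower in shIDH1 than in control cells. In shJOSD2 cells 1 was higher and 5 were lower, KRT19 among them (log2 difference -0.58, adjusted p = 4.67e-05, edgeR). Limma on log2(FPKM + 1) called 1 higher and 1 lower there. Of all tested genes 50.1% passed in shIDH1 and 38.3% in shJOSD2 cells (edgeR).

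All 7 genes passed the filter on low counts. Taking the calls of edgeR's quasi-likelihood test at a Benjamini-Hochberg adjusted p under 0.05 over all 21492 tested genes, 5 members were called in shIDH1 against control cells, all of them higher, where 24.5% of all tested genes were called higher and 25.6% lower (50.1% called). In shJOSD2 cells 5 members were higher and 2 lower than in control, where 18.2% of tested genes were called higher and 20.1% lower (38.3% called). Between the hairpins, 3 members were higher and 3 lower in shIDH1 than in shJOSD2 cells, where 20.8% of tested genes were called higher and 24.0% lower (44.8% called). The FPKM ranges of the groups were separate for 6 of 7 members in shIDH1 against control (56.9% of all tested genes), for 7 of 7 in shJOSD2 against control (51.7%) and for 7 of 7 between the hairpins (58.4%). Since the members were chosen on these values, nothing is read from these counts. Both comparisons with control use the same 3 control libraries.

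**Figure D1:**
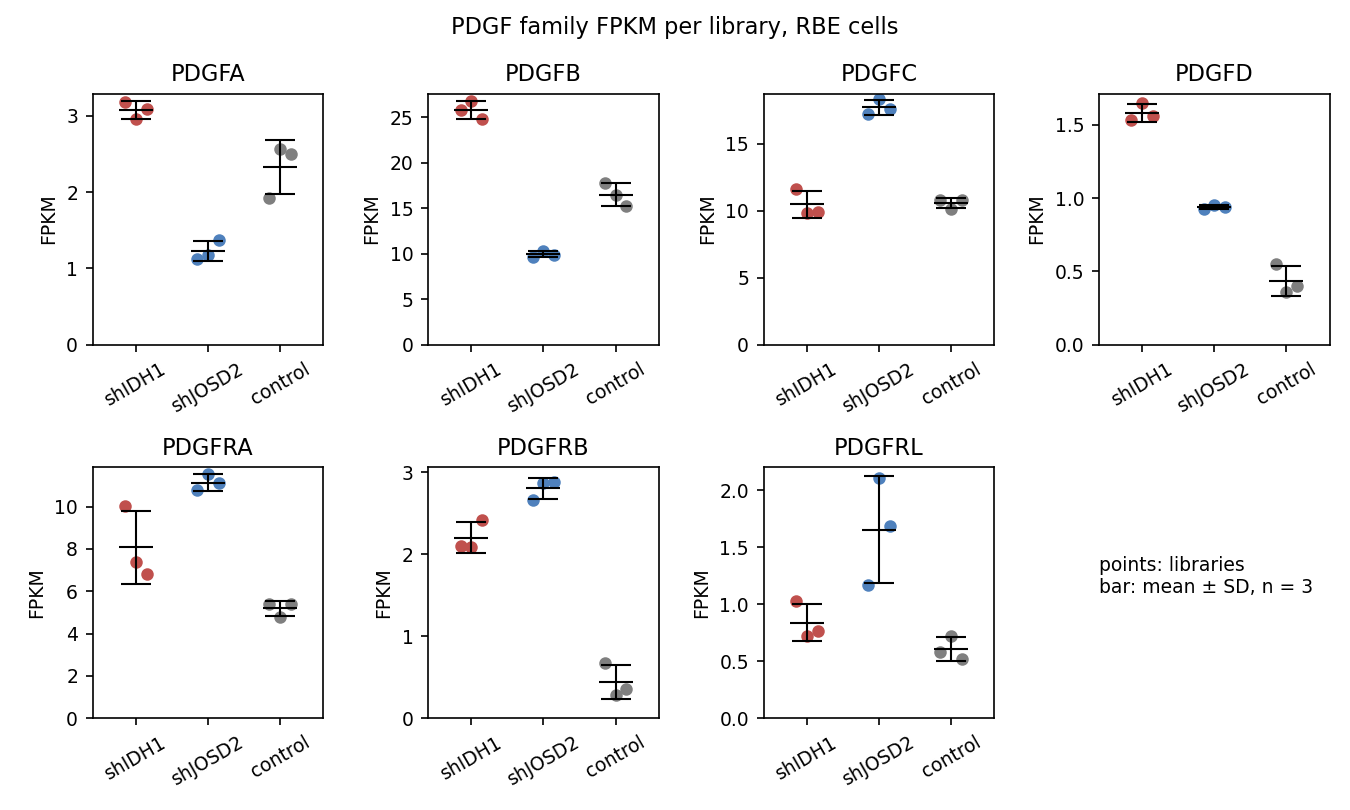
Deposited FPKM of the 7 genes in each library (points, linear axis) with the group mean ± SD (bar, n = 3), shIDH1 left, then shJOSD2, then control. PDGFB was highest in shIDH1 (mean 25.8 FPKM), PDGFC in shJOSD2 (17.7 FPKM), and PDGFRB was above 2 FPKM under both hairpins against at most 0.679 FPKM in control.

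Levels per transcript length put PDGFB first in shIDH1 cells (25.8 ± 0.968 FPKM, SD, n = 3), followed by PDGFC (10.5 ± 1.03) and PDGFRA (8.07 ± 1.70), whose ranges overlapped. In shJOSD2 cells PDGFC came first (17.7 ± 0.562 FPKM, SD, n = 3), then PDGFRA (11.1 ± 0.383) and PDGFB (9.95 ± 0.346), each separate from the next. In control cells the order was PDGFB (16.5 ± 1.25 FPKM, SD, n = 3), PDGFC (10.6 ± 0.410) and PDGFRA (5.19 ± 0.357), again separate from one another. The other 4 genes were at 3.08 FPKM or less on average in every group, and in control cells the ranges of PDGFRL, PDGFRB and PDGFD overlapped one another.

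Among the ligands, PDGFA and PDGFB showed opposite differences under the hairpins, above control in shIDH1 cells and below it in shJOSD2 cells. PDGFB (ENSG00000100311; chromosome 22, 39223359 to 39244982, minus strand, GRCh38) encodes the B chain, which both receptors bind. It stood at 25.8, 26.7 and 24.8 FPKM in shIDH1 libraries, 9.66, 10.3 and 9.87 FPKM in shJOSD2 libraries, and 17.8, 16.4 and 15.2 FPKM in control libraries. The groups did not overlap in any pairing, with every shIDH1 library highest and every shJOSD2 library lowest. The fitted log2 difference from control was 0.64 ± 0.06 (SE, n = 3 per group) in shIDH1 cells and -0.87 ± 0.06 in shJOSD2 cells, so PDGFB was 1.56-fold higher under the first hairpin and 1.83-fold lower under the other. Between the hairpins it was 2.86-fold higher in shIDH1 cells (log2 difference 1.52 ± 0.07). In bulk RNA, a change in how many cells make a transcript and a change in how much each cell makes cannot be told apart.

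PDGFA (ENSG00000197461; chromosome 7, 497258 to 520208, minus strand) encodes the A chain, a ligand of the alpha receptor. Its levels were 3.18, 2.96 and 3.09 FPKM in shIDH1 libraries, 1.12, 1.18 and 1.37 FPKM in shJOSD2 libraries, and 1.93, 2.57 and 2.50 FPKM in control libraries. The shIDH1 libraries lay above and the shJOSD2 libraries below all controls, and control replicate 1 stood apart from the other control libraries. The log2 difference from control was 0.39 ± 0.14 (SE, n = 3 per group) in shIDH1 cells and -1.08 ± 0.14 in shJOSD2 cells. The shIDH1 difference was 0.27 without control replicate 1, 0.38, 0.42 and 0.38 without shIDH1 replicates 1, 2 and 3, and 0.71 against control replicate 1 alone. PDGFA was 2.77-fold higher in shIDH1 than in shJOSD2 cells (log2 difference 1.47 ± 0.14). Across the 9 libraries PDGFA and PDGFB had a Pearson r of 0.94 on log2(FPKM + 1), a description over points that share the 3 groups.

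PDGFC and PDGFD, the CUB-domain ligands, did not follow that order. PDGFC (ENSG00000145431; chromosome 4, 156760454 to 156971799, minus strand), a ligand of the alpha receptor, stood at 11.7, 9.86 and 9.89 FPKM in shIDH1 libraries, 17.2, 18.3 and 17.6 FPKM in shJOSD2 libraries, and 10.8, 10.1 and 10.8 FPKM in control libraries. The shIDH1 and control libraries overlapped, and every shJOSD2 library lay above both. The log2 difference from control was -0.02 ± 0.06 (SE, n = 3 per group) in shIDH1 cells and 0.60 ± 0.06 in shJOSD2 cells, a 1.51-fold higher level in the shJOSD2 group. Between the hairpins PDGFC was 1.53-fold lower in shIDH1 cells (log2 difference -0.61 ± 0.06). PDGFB and PDGFC had a Pearson r of -0.86 over the 9 libraries on the same log scale.

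PDGFD (ENSG00000170962; chromosome 11, 103907189 to 104164379, minus strand), a ligand of the beta receptor, was above control under both hairpins. It had 1.53, 1.65 and 1.56 FPKM in shIDH1 libraries, 0.924, 0.950 and 0.936 FPKM in shJOSD2 libraries, and 0.552, 0.357 and 0.402 FPKM in control libraries. The 3 groups were separate, with control lowest and shIDH1 highest. The log2 difference from control was 1.85 ± 0.17 (SE, n = 3 per group) in shIDH1 cells and 0.95 ± 0.17 in shJOSD2 cells, that is 3.60-fold and 1.93-fold higher. Between the hairpins PDGFD was 1.86-fold higher in shIDH1 cells (log2 difference 0.90 ± 0.17). The control values rest on 173, 110 and 122 deposited counts, against 473, 497 and 498 in shIDH1 and 288, 284 and 277 in shJOSD2 libraries.

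**Figure D2:**
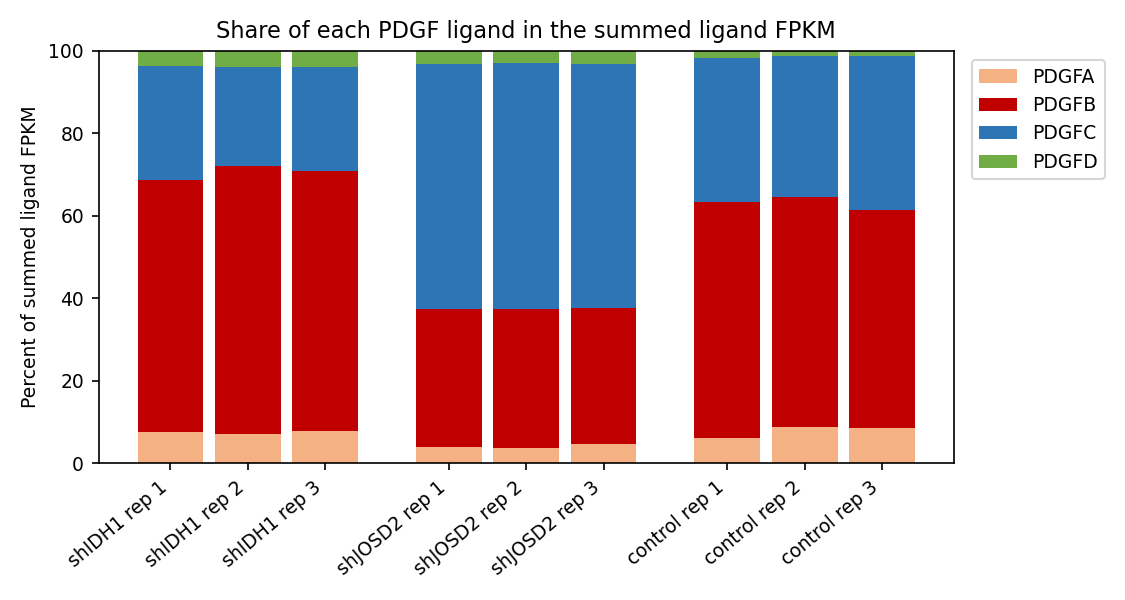
Share of the summed FPKM of PDGFA, PDGFB, PDGFC and PDGFD taken by each ligand, in percent, for every library, with shIDH1 first, then shJOSD2, then control. PDGFB took 63.0% in shIDH1 and 55.2% in control on average, whereas PDGFC took 59.4% in shJOSD2.

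Put together by FPKM, the makeup of the ligand transcripts differed between groups in ways the single genes show less plainly. PDGFB made up 63.0% ± 1.87 of the summed ligand FPKM in shIDH1 cells, 33.4% ± 0.244 in shJOSD2 cells and 55.2% ± 2.31 in control cells (SD, n = 3 each). PDGFC made up 25.57% ± 1.897 in shIDH1 cells, 59.4% ± 0.196 in shJOSD2 cells and 35.5% ± 1.61 in control cells. The ratio of PDGFB to PDGFC was therefore 2.21 to 2.71 in shIDH1 libraries and 0.560 to 0.565 in shJOSD2 libraries, against 1.41 to 1.64 in control libraries. PDGFC exceeded PDGFB in all shJOSD2 libraries and in no other library. The summed ligand FPKM was 40.9 ± 1.43 in shIDH1 cells, 29.8 ± 0.940 in shJOSD2 cells and 29.8 ± 1.09 in control cells, so the shJOSD2 and control sums were alike in mean while their makeup was not. PDGFD, the least abundant ligand, took 3.87% ± 0.196 in shIDH1, 3.14% ± 0.0565 in shJOSD2 and 1.46% ± 0.290 in control cells. These shares are sums over transcripts and say nothing of secreted protein.

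Both receptor transcripts were higher under each hairpin than in control. PDGFRB (ENSG00000113721; chromosome 5, 150113839 to 150155860, minus strand), the receptor for the B and D chains, had 2.10, 2.08 and 2.42 FPKM in shIDH1 libraries, 2.66, 2.87 and 2.89 FPKM in shJOSD2 libraries, and 0.679, 0.284 and 0.358 FPKM in control libraries. No hairpin library came near the control range, and control replicate 1 was the highest control. The log2 difference from control was 2.31 ± 0.23 (SE, n = 3 per group) in shIDH1 cells and 2.51 ± 0.23 in shJOSD2 cells, 4.97-fold and 5.71-fold higher, which were the widest differences from control of the 7 genes. Between the hairpins the log2 difference was -0.20 ± 0.22, within its standard error, although the FPKM ranges were separate. Against control replicate 1 alone the differences from control were 1.73 and 1.92, and without that library they were 2.75 and 2.94. The control values rest on 355, 148 and 185 deposited counts.

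PDGFRA (ENSG00000134853; chromosome 4, 54229280 to 54281977, plus strand), the receptor for the A, B and C chains, was the more abundant receptor in every library. It had 10.02, 7.371 and 6.831 FPKM in shIDH1 libraries, 10.8, 11.5 and 11.1 FPKM in shJOSD2 libraries, and 5.41, 4.78 and 5.39 FPKM in control libraries. The 3 groups were separate, but shIDH1 replicate 1 stood well above its group and close to the shJOSD2 range. The log2 difference from control was 0.63 ± 0.11 (SE, n = 3 per group) in shIDH1 cells and 0.95 ± 0.11 in shJOSD2 cells, 1.55-fold and 1.94-fold higher. Between the hairpins it was -0.32 ± 0.11, and -0.49 without shIDH1 replicate 1, the widest value of all alternatives. It was -0.26 without shIDH1 replicate 2, -0.22 without shIDH1 replicate 3, and -0.34, -0.30 and -0.33 without each shJOSD2 library in turn.

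The balance of the receptor transcripts moved as well. The ratio of PDGFRA to PDGFRB in FPKM was 3.71 ± 0.987 in shIDH1 cells and 3.97 ± 0.108 in shJOSD2 cells, against 13.3 ± 4.68 in control cells (SD, n = 3 each), and the lowest control ratio was 7.97. The sum of both receptors was 10.3 ± 1.60 FPKM in shIDH1 cells, 13.9 ± 0.487 FPKM in shJOSD2 cells and 5.63 ± 0.522 FPKM in control cells. PDGFRA and PDGFRB had a Pearson r of 0.90 over the 9 libraries.

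**Figure D3:**
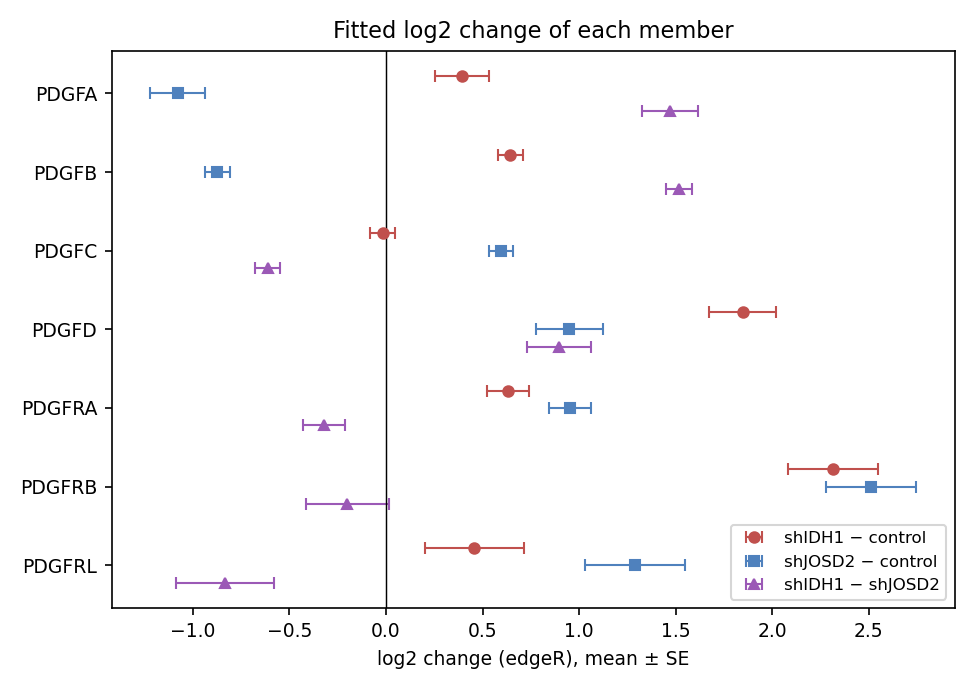
Fitted log2 difference of each of the 7 genes with its standard error (bars) for shIDH1 against control, shJOSD2 against control and shIDH1 against shJOSD2. PDGFRB had the widest difference from control under both hairpins (2.31 and 2.51), and PDGFA and PDGFB lay on opposite sides of 0 in the comparisons with control.

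Promoter windows of 300 bases around annotated starts were read from the table of RefSeq promoters (GRCh38.p14). They are shown for PDGFA, PDGFD, PDGFRA and PDGFRB. That source held no window for PDGFB or PDGFC, and PDGFRL was left out of the search. Where the table held several windows for a gene (4 for PDGFA, 2 for PDGFRA), the one nearest the deposited gene's start is shown. They were searched on both strands for the TEAD core GGAATG, named because the series title names YAP and TAZ, which bind DNA through TEAD factors, for the AP-1 site TGANTCA, for the GC box GGGCGG bound by Sp factors, and for the EGR site GCGGGGGCG, with overlapping matches counted. The PDGFA window lies at chr7:520177-520476 (minus strand), the PDGFD window at chr11:104164098-104164397 (minus strand), the PDGFRA window at chr4:54229043-54229342 (plus strand) and the PDGFRB window at chr5:150155796-150156095 (minus strand). Each is written 5′ to 3′ along the gene, with the matched letters in capitals.
PDGFA: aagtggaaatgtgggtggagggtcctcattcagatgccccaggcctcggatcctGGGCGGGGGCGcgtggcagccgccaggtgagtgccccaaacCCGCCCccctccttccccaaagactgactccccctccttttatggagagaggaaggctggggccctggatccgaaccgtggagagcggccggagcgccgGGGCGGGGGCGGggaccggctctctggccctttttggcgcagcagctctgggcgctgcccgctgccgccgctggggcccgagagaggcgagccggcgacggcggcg
PDGFD: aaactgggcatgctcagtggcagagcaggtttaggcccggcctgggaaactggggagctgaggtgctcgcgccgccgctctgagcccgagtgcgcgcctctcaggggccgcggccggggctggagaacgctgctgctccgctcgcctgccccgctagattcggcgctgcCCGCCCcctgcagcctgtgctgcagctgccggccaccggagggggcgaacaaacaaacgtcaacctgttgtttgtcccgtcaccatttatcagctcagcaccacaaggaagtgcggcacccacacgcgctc
PDGFRA: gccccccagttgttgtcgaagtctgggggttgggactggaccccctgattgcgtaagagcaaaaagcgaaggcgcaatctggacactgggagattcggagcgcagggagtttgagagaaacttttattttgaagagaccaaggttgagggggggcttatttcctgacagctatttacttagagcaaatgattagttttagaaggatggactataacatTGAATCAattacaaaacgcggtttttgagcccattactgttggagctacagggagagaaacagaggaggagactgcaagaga
PDGFRB: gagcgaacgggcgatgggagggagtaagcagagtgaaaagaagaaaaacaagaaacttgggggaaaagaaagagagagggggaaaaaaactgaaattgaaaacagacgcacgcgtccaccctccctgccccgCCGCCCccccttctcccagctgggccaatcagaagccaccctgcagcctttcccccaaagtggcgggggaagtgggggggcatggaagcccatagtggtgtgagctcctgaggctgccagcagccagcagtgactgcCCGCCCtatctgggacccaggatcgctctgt

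The PDGFA window held 4 GC boxes and 2 EGR sites, the PDGFD window 1 GC box, the PDGFRB window 2 GC boxes and the PDGFRA window 1 AP-1 site. The counts depended on the window: the PDGFRA window not shown (chr4:54233710-54234009) held 2 GC boxes and 0 AP-1 sites. The PDGFA windows not shown held 4, 1 and 5 GC boxes and 2, 0 and 0 EGR sites. Among 35116 promoter windows of the same length, 45.0% held a GC box, 5.07% an EGR site, 7.71% an AP-1 site and 14.0% a TEAD core. The letters of the TEAD core were not in any of the 4 windows shown, which says nothing of TEAD factors elsewhere at these genes. Windows of PDGFB, PDGFC and PDGFRL were not searched, so these counts do not cover them. A match is a description of the letters and not a bound site.

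PDGFRL (ENSG00000104213; chromosome 8, 17576433 to 17644071, plus strand), the receptor-like gene, had 1.03, 0.724 and 0.762 FPKM in shIDH1 libraries, 1.17, 2.10 and 1.69 FPKM in shJOSD2 libraries, and 0.579, 0.719 and 0.517 FPKM in control libraries. The shJOSD2 libraries were the highest and the most spread, and shIDH1 replicate 2 lay just above the highest control. The log2 difference from control was 0.46 ± 0.26 (SE, n = 3 per group) in shIDH1 cells and 1.29 ± 0.26 in shJOSD2 cells, a 2.44-fold higher level. Between the hairpins it was -0.83 ± 0.25, and -1.03 without shJOSD2 replicate 1, the widest value of all alternatives. It was -0.74 without shIDH1 replicate 2, -0.78 without shIDH1 replicate 3 and -0.62 without shJOSD2 replicate 2. PDGFRL rests on few counts, 124 to 179 in shIDH1, 206 to 356 in shJOSD2 and 89 to 125 in control libraries. It shares 277 bases with MTUS1, which is read from the opposite strand and had log2 differences of 0.59 ± 0.13 in shIDH1 and 1.60 ± 0.13 in shJOSD2 cells against control (adjusted p = 0.00265 and 2.25e-06, edgeR, adjusted after Benjamini and Hochberg). The libraries are strand-marked, but the sources used here do not give the strand setting of the counting, and reads of the shared stretch cannot be assigned to either gene.

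Genes whose log2(FPKM + 1) over the 9 libraries most resembled each member were taken from 12075 genes with a group mean of at least 1 FPKM, as a description in which all points share the 3 groups. For PDGFRB these were SP140, ANO4 and MYLK (Pearson r of 0.998, 0.997 and 0.995), and for PDGFRA NBPF20, A1CF and FLRT3 (0.989, 0.989 and 0.989). NBPF20 belongs to a multigene family whose reads may be split between copies. For PDGFB they were ERAP1, EXTL3 and PACSIN2 (0.996, 0.995 and 0.994), and for PDGFA EZR, DCLK2 and TUSC2 (0.985, 0.985 and 0.984). PDGFD most resembled TRAK2, PPARA and NABP1 (0.997, 0.997 and 0.996), and PDGFC resembled ENTPD7, SLC40A1 and CLBA1 (0.992, 0.991 and 0.990). The nearest for PDGFRL were FAM185A, RCBTB1 and ZNF365 (0.971, 0.971 and 0.961). No member was among the nearest of another.

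Several genes whose proteins cut, bind or hold PDGF ligands were called. Of 10 tested genes of this list, 6 were called higher and 3 lower in shIDH1 cells, and 5 higher and 2 lower in shJOSD2 cells, where of all tested genes 24.5% were called higher and 25.6% lower in shIDH1 cells and 18.2% and 20.1% in shJOSD2 cells, with median log2 differences of 0.40 and 0.21 beside 0.01 and 0.03 over all tested genes. SPARC, a matricellular protein that binds PDGF-B, averaged 25.3 ± 2.10 FPKM in shIDH1 cells, 1.46 ± 0.152 FPKM in shJOSD2 cells and 0.766 ± 0.191 FPKM in control cells (SD, n = 3 each). It was 32.7-fold higher in shIDH1 and 1.71-fold higher in shJOSD2 cells than in control (adjusted p = 6.47e-10 and 0.000938, edgeR, adjusted after Benjamini and Hochberg). PLAT, the tissue plasminogen activator that cuts PDGF-C, rose 2.27-fold in shIDH1 and 1.44-fold in shJOSD2 cells (adjusted p = 1.67e-06 and 0.00222, edgeR, adjusted after Benjamini and Hochberg), and the shJOSD2 call of PLAT was lost only against control replicate 1 alone (1 of 22 alternatives; adjusted p between 3.92e-05 and 0.0801). PCSK5, a proprotein convertase, rose 2.89-fold and 2.51-fold (adjusted p = 6.27e-07 and 5.68e-06, the same edgeR test). ST14, the membrane protease matriptase, which can cut PDGF-D, fell in shIDH1 cells, to 4.62 ± 0.482 FPKM against 11.3 ± 0.923 FPKM in control (adjusted p = 1.23e-07, edgeR), and stood at 14.0 ± 0.0376 FPKM in shJOSD2 cells (adjusted p = 0.192, edgeR, and called higher in 6 of 22 alternatives, among them without control replicate 2 at a log2 difference of 0.24, with adjusted p between 0.0117 and 0.414).

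PLAU, FURIN, PCSK6 and PCSK7, also of this list, were singled out after their values were seen. The convertase gene PCSK6 had log2 differences of -0.97 in shIDH1 and -0.49 in shJOSD2 cells (adjusted p = 1.69e-06 and 0.000785, edgeR). PCSK7, another convertase gene, had log2 differences of -0.75 and 0.28 (adjusted p = 7.61e-07 and 0.00368, edgeR). PLAU, the urokinase that cuts PDGF-D, was at 142 ± 5.96 FPKM in shIDH1 cells, 73.4 ± 2.25 FPKM in shJOSD2 cells and 120 ± 2.08 FPKM in control cells (SD, n = 3 each). It rose 1.19-fold in shIDH1 and fell 1.81-fold in shJOSD2 cells (adjusted p = 0.00175 and 2.30e-07, edgeR, adjusted after Benjamini and Hochberg). FURIN, which cuts PDGF-A and PDGF-B, had 30.3 ± 1.62 FPKM in shIDH1, 36.5 ± 1.19 FPKM in shJOSD2 and 30.9 ± 1.04 FPKM in control cells, and did not pass in either comparison with control (adjusted p = 0.739 and 0.294, edgeR).

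**Figure D4:**
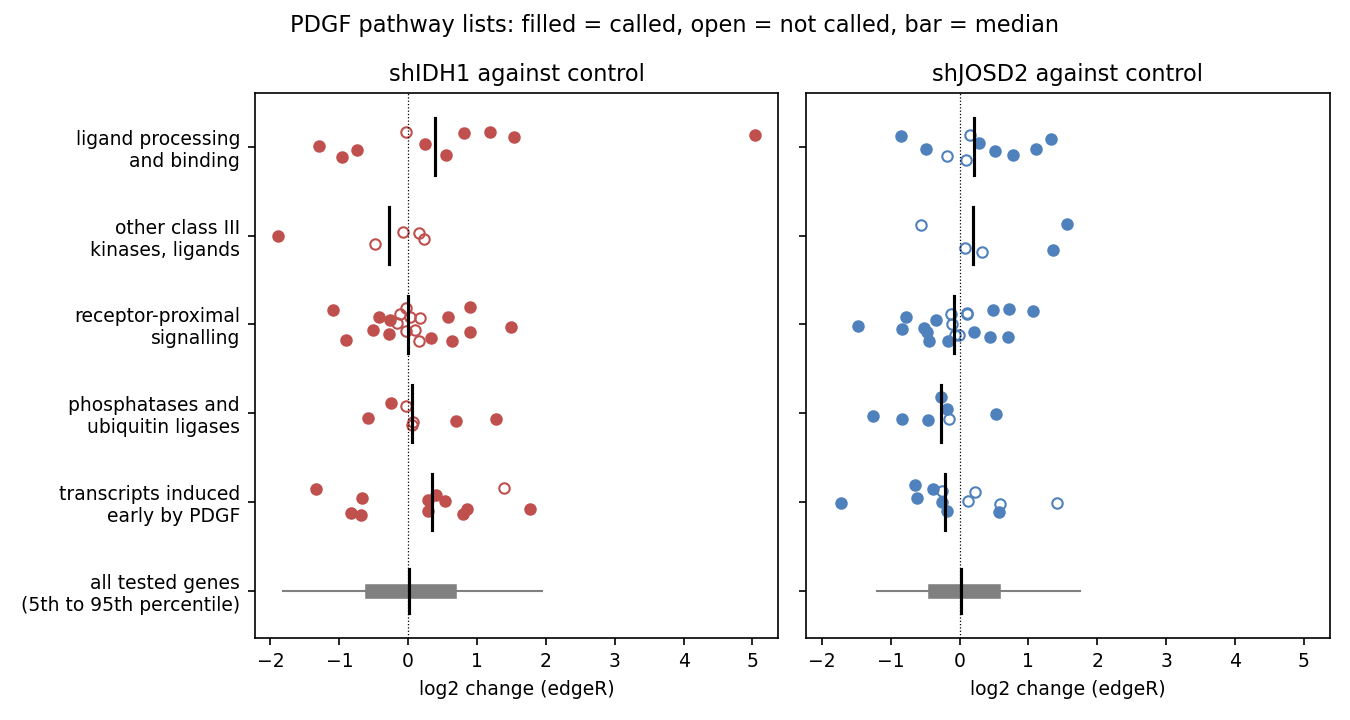
Fitted log2 differences from control of the tested genes of each PDGF pathway list in shIDH1 (left) and shJOSD2 cells (right), filled where called and open where not, with the list median (bar) and, in grey, all tested genes. The early-induced transcripts had 7 genes called higher in shIDH1 and 6 called lower in shJOSD2 cells. IL34, listed at 0 in every shJOSD2 library, is not drawn in either panel.

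The other kinases of the PDGF receptor class and their ligands include the receptors for CSF1, stem cell factor and FLT3 ligand. Of 6 tested genes, 1 was called in shIDH1 cells, lower, and 2 were called higher and 1 lower in shJOSD2 cells, beside 50.1% and 38.3% of all tested genes called. Apart from CSF1, the called genes were at low levels. FLT3 averaged 0.105 FPKM in shIDH1 against 0.390 FPKM in control cells. In shJOSD2 against control cells, CSF1R averaged 0.389 and 0.132 FPKM, and IL34 averaged 0 and 0.0633 FPKM. FLT3, CSF1R and IL34 were singled out after their values were seen. CSF1, the ligand of the CSF1 receptor, had 15.2 ± 0.787 FPKM in shIDH1 cells, 42.3 ± 2.33 FPKM in shJOSD2 cells and 13.0 ± 2.12 FPKM in control cells (SD, n = 3 each). It rose 2.95-fold in shJOSD2 cells (edgeR, adjusted after Benjamini and Hochberg, adjusted p = 2.34e-07), and its log2 difference in shIDH1 cells was 0.23 ± 0.10 (adjusted p = 0.0656, edgeR). In shIDH1 cells CSF1 was called in 7 of 22 alternatives (adjusted p between 0.00551 and 0.822), among them without control replicate 1 (0.35) and without shIDH1 replicate 1 (0.28), and each of these raised the number of the list called to 2. In shJOSD2 cells 1 gene of the list was called without shJOSD2 replicate 1 and 1 without shJOSD2 replicate 3.

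Receptor-proximal signalling genes were called in both directions. Of 20 tested, 6 rose and 6 fell in shIDH1 cells, and 6 rose and 8 fell in shJOSD2 cells, with medians of -0.01 and -0.09 on the log2 scale. Of all tested genes 24.5% rose and 25.6% fell in shIDH1 cells, and 18.2% rose and 20.1% fell in shJOSD2 cells, so the shIDH1 counts lie near those shares. PIK3R1, the p85-alpha subunit that docks phosphoinositide 3-kinase on the receptors, was at 8.32 ± 0.708 FPKM in shIDH1 cells, 5.33 ± 0.223 FPKM in shJOSD2 cells and 2.96 ± 0.421 FPKM in control cells (SD, n = 3 each). It rose 2.81-fold and 1.63-fold (adjusted p = 4.01e-08 and 4.82e-05, edgeR, adjusted after Benjamini and Hochberg). PIK3R2, the p85-beta subunit, rose 2.09-fold in shJOSD2 cells (adjusted p = 8.85e-06, edgeR), while its log2 difference in shIDH1 cells was -0.16 ± 0.11 (adjusted p = 0.231, edgeR, and called in 1 of 22 alternatives, against control replicate 1 alone, at -0.36, with adjusted p between 0.0379 and 0.786). The docking protein gene GAB1 rose 1.87-fold and 1.64-fold (adjusted p = 2.90e-05 and 0.000337, edgeR). The adaptor gene CRKL fell 2.13-fold and 1.39-fold (adjusted p = 7.21e-08 and 0.000157, edgeR).

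Among phosphatases and ubiquitin ligases that act on the receptors, 2 of 7 tested rose and 2 fell in shIDH1 cells, and 1 rose and 5 fell in shJOSD2 cells, where limma on FPKM called 3 in all. Of all tested genes 50.1% were called in shIDH1 and 38.3% in shJOSD2 cells. PTPRJ, a receptor phosphatase that dephosphorylates PDGFRB, was at 14.8 ± 1.12 FPKM in shIDH1 cells, 4.19 ± 0.292 FPKM in shJOSD2 cells and 9.08 ± 1.06 FPKM in control cells (SD, n = 3 each). It rose 1.62-fold in shIDH1 and fell 2.40-fold in shJOSD2 cells (adjusted p = 1.14e-05 and 3.01e-07, edgeR, adjusted after Benjamini and Hochberg), and differed 3.90-fold between the hairpins (adjusted p = 4.99e-09, edgeR). CBL, a ubiquitin ligase of the receptors, fell 1.79-fold in shJOSD2 cells (adjusted p = 4.95e-06, edgeR) and had a log2 difference of 0.05 ± 0.08 in shIDH1 cells (adjusted p = 0.634). Its relative CBLB rose 2.43-fold in shIDH1 and 1.45-fold in shJOSD2 cells (adjusted p = 5.41e-06 and 0.00726, edgeR), and the shJOSD2 call of CBLB was lost only against control replicate 1 alone (1 of 22 alternatives; adjusted p between 0.00104 and 0.197). PTPN1, a phosphatase of the endoplasmic reticulum, fell by 0.58 and 0.26 on the log2 scale (adjusted p = 3.98e-06 and 0.00347, edgeR). The shJOSD2 call of PTPN1 held in 18 of 22 alternatives (adjusted p between 8.12e-05 and 0.244) and was lost when libraries were scaled by their totals alone and with limma on FPKM.

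Transcripts known to be induced early by PDGF in fibroblasts were called in both directions. Of 12 tested, 7 rose and 4 fell in shIDH1 cells (median log2 difference 0.35), and 1 rose and 6 fell in shJOSD2 cells (median -0.21), beside 24.5% rising and 25.6% falling in shIDH1 cells and 18.2% and 20.1% in shJOSD2 cells over all tested genes. Between the hairpins 6 were higher and 2 lower in shIDH1 cells, beside 20.8% higher and 24.0% lower over all tested genes. DUSP1, a phosphatase of MAP kinases, had 76.4 ± 6.53 FPKM in shIDH1 cells, 28.9 ± 2.58 FPKM in shJOSD2 cells and 22.3 ± 2.84 FPKM in control cells (SD, n = 3 each). It rose 3.42-fold in shIDH1 cells (adjusted p = 1.27e-08, edgeR, adjusted after Benjamini and Hochberg), and its log2 difference was 0.23 ± 0.09 in shJOSD2 cells (adjusted p = 0.0652, edgeR). DUSP1 was called there in 9 of 22 alternatives (adjusted p between 0.00808 and 0.242), among them without control replicate 3 and without shJOSD2 replicate 1, at 0.30 each. CCL2, a chemokine that attracts monocytes, fell 2.53-fold and 3.30-fold (adjusted p = 0.00755 and 0.00243, edgeR). FOSL1, an AP-1 subunit, fell 1.78-fold in shIDH1 cells (adjusted p = 1.69e-05, edgeR) and had a log2 difference of -0.25 ± 0.10 in shJOSD2 cells (adjusted p = 0.0620, edgeR). FOSL1 was called there in 5 of 22 alternatives (adjusted p between 0.0204 and 0.666), among them without control replicate 1, shIDH1 replicate 1 or shIDH1 replicate 3, at -0.32, -0.26 and -0.26. FOS, another AP-1 subunit, rose 1.82-fold in shIDH1 cells (adjusted p = 0.0212, edgeR) and had a log2 difference of 0.59 ± 0.28 in shJOSD2 cells (adjusted p = 0.118). The shIDH1 call of FOS held in 17 of 22 alternatives (adjusted p between 0.00373 and 0.0946) and was lost without control replicate 1 (0.85), control replicate 3 (0.63) or shIDH1 replicate 2 (0.69), and with no filter on low counts in edgeR or limma. In shJOSD2 cells FOS was called in 2 of 22 alternatives (adjusted p between 0.026 and 0.394), without control replicate 2 (0.90) and with library totals alone (0.75). Over the 50 tested genes that the deposited Reactome annotation places in PDGF signalling, members left out, 23 rose and 8 fell in shIDH1 cells (median 0.19), and 17 rose and 13 fell in shJOSD2 cells (median 0.04). Over all tested genes 50.1% and 38.3% were called, with medians of 0.01 and 0.03, so the shJOSD2 median of this list is about that of all genes. The list also holds collagen and thrombospondin genes, so its counts are not of signalling components alone. COL4A1, COL5A1 and THBS1 were among those that rose in shIDH1 cells, while COL6A3, COL9A3 and THBS4 were not called there. COL9A1, called higher under both hairpins, averaged only 0.0934, 0.0632 and 0 FPKM in shIDH1, shJOSD2 and control cells. The collagen and thrombospondin genes named here were singled out after their values were seen.

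Markers of the cells that usually carry PDGF receptors were examined beside the receptor values. Of 8 fibroblast markers, COL3A1, DCN, LUM, FAP and TCF21 were under 0.1 FPKM in every library. The summed level of the list was 6.15 to 7.34 FPKM in shIDH1, 3.41 to 3.81 FPKM in shJOSD2 and 2.92 to 3.33 FPKM in control libraries. In shIDH1 cells 2 of 5 tested fibroblast markers were called higher, beside 24.5% of all tested genes. In shJOSD2 cells edgeR with TMM scaling and DESeq2 called 0 of these 5, and 1 had an unadjusted p under 0.05 in edgeR. Limma on log2(FPKM + 1) called 1 there, and so did edgeR with upper-quartile factors, with library totals alone, with a filter on counts per library depth or against control replicate 1 alone. COL1A1, the most abundant fibroblast marker, averaged 5.54 FPKM in shIDH1, 1.96 FPKM in shJOSD2 and 1.91 FPKM in control cells. It rose 2.89-fold in shIDH1 cells (edgeR, adjusted p = 2.11e-07) and had a log2 difference of -0.11 in shJOSD2 cells (adjusted p = 0.502, edgeR). Of 7 pericyte and smooth muscle markers, 4 were called higher and 1 lower in shIDH1 cells, and 2 higher and 1 lower in shJOSD2 cells, with median log2 differences of 0.23 and -0.08, beside 50.1% and 38.3% of all tested genes called. Their summed level was 57.4 to 61.0 FPKM in shIDH1, 48.7 to 51.2 FPKM in shJOSD2 and 31.5 to 36.9 FPKM in control libraries, while MYH11, the smooth muscle myosin, was under 0.1 FPKM throughout. ACTA2, smooth muscle actin and the most abundant of them, rose 2.13-fold in shIDH1 and 1.99-fold in shJOSD2 cells (adjusted p = 7.31e-08 and 5.94e-07, edgeR, adjusted after Benjamini and Hochberg). MCAM, the other abundant marker of that sum, had 22.7 FPKM in shIDH1, 20.3 FPKM in shJOSD2 and 19.4 FPKM in control cells, and DES, the muscle intermediate filament desmin, had 3.54, 0.291 and 0.642 FPKM in shIDH1, shJOSD2 and control cells. DES rose in shIDH1 and fell 2.38-fold in shJOSD2 cells (edgeR, adjusted p = 3.11e-06 and 0.00166). RGS5, a pericyte marker, had 5.07, 1.085 and 0.618 FPKM in shIDH1, shJOSD2 and control cells. RGS5 rose 8.16-fold in shIDH1 and 1.59-fold in shJOSD2 cells (edgeR, adjusted p = 5.42e-09 and 0.00177). MCAM, DES and RGS5 were singled out after their values were seen. The part of these transcripts in the PDGFRA and PDGFRB values was not tested. Endothelial markers summed to 0.748 to 0.930 FPKM in shIDH1, 0.866 to 1.28 FPKM in shJOSD2 and 0.727 to 0.824 FPKM in control libraries, and platelet markers, of another main source of PDGF, to at most 0.288 FPKM in any library. Macrophage and leukocyte markers, nearly all of it CD68, summed to 22.4 to 25.2 FPKM in shIDH1, 19.8 to 27.0 FPKM in shJOSD2 and 29.0 to 33.6 FPKM in control libraries.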

How the data were processed

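Poly(A) RNA was, per the labels' protocols, made into strand-marked libraries with unique molecular identifiers and sequenced as read pairs. Per the submitters' processing notes, the tools were HISAT2 2.0.4, StringTie 1.3.4d, cutadapt 1.9 and UMI-tools, and the build was GRCh38. What each tool did, the annotation, how reads were counted and whether duplicates were removed is not given in the sources used here. The table deposited by the authors gives, per the file headers, a whole-number count and an FPKM value per gene and library.

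Members and gene lists were chosen with earlier results of these data known. Members were matched by gene name. The counts of all 9 libraries entered 1 fit in edgeR 4.0.16 (R 4.3.3): filterByExpr (21492 genes kept), TMM scaling, a mean per group, quasi-likelihood F-tests, and p-values adjusted after Benjamini and Hochberg over every tested gene, with 0.05 as the threshold. The standard error was taken as the size of the log2 change divided by the root of F. The named genes were the members, IDH1, JOSD2, up to 4 called genes of each list with the largest change among those with a group mean of at least 1 FPKM, the most abundant marker of each marker list, and the 3 genes most like each member. Genes singled out outside this rule are marked in the text or stand beside a member in the genome. The Reactome list, ligand shares and genome neighbours were added after the table was seen. The edgeR test was run on simulated counts with known changes first. Alternatives were DESeq2 1.42.0, limma 3.58.1 on log2 FPKM, other filters and scalings, counts divided by 4, a replicate block, a lone control and each library left out. After division of the counts by 4, pairs of libraries of a group differed by a chi-square per degree of freedom of 3.62 to 10, above counting noise on that scale. Each library counted as 1 sample, although this spread cannot show whether the libraries stem from separate infections. Figures were drawn with matplotlib 3.10.9.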

Additional observations from a re-analysis of the deposited data

How the results depend on the processing

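Of 21 member differences over the 3 comparisons, 20 kept their sign under all alternatives (22 for the comparisons with control, 21 between hairpins). The exception, PDGFC in shIDH1 cells, changed sign in 6 of 22. The number of members called ranged over the alternatives between 4 and 5 for shIDH1 against control, stayed at 7 for shJOSD2 against control, and ranged between 4 and 6 between hairpins. Limma on log2(FPKM + 1) gave PDGFRB differences of 1.16 and 1.41, smaller because the pseudocount weighs on low values. Of 1618 values for other named genes under an alternative, 1561 kept their side of the threshold, 23 lost and 34 gained a call and 0 reversed.

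Scaling moved the balance of calls over all genes. In shJOSD2 against control, library totals alone gave 5638 higher and 2934 lower (median of all genes 0.18), upper-quartile scaling 4827 and 3491 (0.12), and limma on FPKM 5616 and 3069, beside 3907 and 4330 in the edgeR fit with TMM. Upper-quartile scaling gave 6176 higher and 4682 lower in shIDH1 against control (0.12), and library totals 3316 and 6653 between hairpins (-0.21). The members called higher and lower stayed at 5 and 2 in shJOSD2 cells and at 3 and 3 between hairpins under these.

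Replicate numbers did not pair the libraries: deviations of same-numbered libraries correlated between -0.018 and 0.038, and a library correlated best with its own number in 8 of 18 checks. With a replicate block 10416, 7823 and 9296 genes were called, and 5, 7 and 6 members. With control replicate 1 as the lone control, assumed to vary like the other groups, 8476 and 5569 genes were called. Depth limits PDGFRL, PDGFD and PDGFRB in control cells most.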

Other observations

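The genes next to the members did not share 1 pattern. CSF1R, a receptor kinase of the same class that lies 0.5 kb from PDGFRB, was at 0.126 FPKM in shIDH1, 0.389 FPKM in shJOSD2 and 0.132 FPKM in control cells on average, with log2 differences from control of -0.08 ± 0.42 and 1.36 ± 0.41 (adjusted p = 0.892 and 0.0208, edgeR, adjusted after Benjamini and Hochberg). GLRB, 104.3 kb from PDGFC, was at 24.8 FPKM in shIDH1, 9.56 FPKM in shJOSD2 and 7.46 FPKM in control cells, with log2 differences of 1.73 ± 0.09 and 0.21 ± 0.09 (adjusted p = 1.61e-08 and 0.0849, edgeR). FAM20C, 236.5 kb from PDGFA, had log2 differences of -1.05 ± 0.11 and -0.62 ± 0.11 (adjusted p = 5.22e-06 and 0.000688, edgeR). SLC7A2, 5.9 kb from PDGFRL, had log2 differences of -0.25 ± 0.13 and -1.10 ± 0.13 (adjusted p = 0.140 and 4.06e-05, edgeR). DYNC2H1, 427.3 kb from PDGFD, had log2 differences of 0.36 and 0.59 (adjusted p = 0.0164 and 0.00105, edgeR). CASP4, 778.5 kb from PDGFD on its other side, had 0.70 and 0.37 (adjusted p = 0.000694 and 0.0416, edgeR). Both were called higher under both hairpins, where 24.5% of all tested genes were called higher in shIDH1 and 18.2% in shJOSD2 cells. HRAT92, 0.2 kb from PDGFA, had 0.06 ± 0.40 and 0.13 ± 0.40 (adjusted p = 0.922 and 0.838, edgeR). Neighbours were taken by position after the table was seen, and not all of them are named here.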
